A study of Cynoglossus semilaevis with 24 samples.

Results

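The brain transcriptome of Chinese tongue sole (Cynoglossus semilaevis), a flatfish whose females outgrow its males, was described against pituitary, liver and gonads. Brain made up 6 of the 24 RNA-seq libraries of the series, 3 from genetic females and 3 from genetic males, and was set against 18 libraries of pituitary, liver and gonad, with 3 libraries for each tissue in each sex. All fish were 2 years old and untreated as far as the labels say. Each library held RNA pooled from the tissue of 5 fish of 1 sex, which averages single fish, and whether 1 fish gave several tissues is not given in the labels. Which regions of the brain were taken is not given in the labels.

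Vertebrate brain tissue holds neurons, which signal to each other through transmitter release at synapses and through peptides, together with myelin-forming oligodendrocytes, astrocytes or radial glia, microglia and vessels. In adult teleost fish, radial glia persist and carry out much of what astrocytes do in mammals. The hypothalamus, a part of the brain, makes the peptides that control the pituitary, and a number of the genes of neuronal secretion are also used by pituitary endocrine cells.

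Levels are given in FPKM, fragments scaled to transcript length and library size, as deposited. A gene was called higher or lower in brain when the quasi-likelihood test of edgeR, run on the estimated counts of all 24 libraries, gave an adjusted p under 0.05 for the mean of female and male brain against the equally weighted mean of the 6 other tissue-by-sex groups. A called gene counted as brain-enriched only if its mean FPKM over the 6 brain libraries exceeded the mean of each of the 6 other groups. An enriched gene counted as brain-restricted if its brain mean was at least 1 FPKM and at least 5 times the highest of those 6 means. Brain libraries held between 10032337 and 13513509 estimated counts, and 15948 to 16399 genes reached 1 FPKM in each. Female pituitary 3, male pituitary 3, female liver 1 and male brain 1 carried transcripts of oocytes, summing over 30 oocyte genes to 177 FPKM in male brain 1 and to between 26.9 and 31.6 FPKM in the other 5 brain libraries. Without those 4 libraries the restricted genes numbered 1058, of which 1029 were among the 1071 of all libraries.

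Of 19501 genes tested, 7704 (39.5%) were called higher in brain and 7587 (38.9%) were called lower. The split between higher and lower rests on the scaling between tissues. With TMM scaling 50.4% of the calls were higher, and with no scaling beyond the count total 80.5% were (12275 higher, 2974 lower), the median log2 difference of all genes being -0.09 with TMM and 0.79 with no scaling. The brain-enriched genes numbered 4870 (25.0% of those tested), and a further 262 genes had the highest mean in brain but were not called. With no scaling 5112 were enriched, among them all of the 4870. The brain-restricted genes numbered 1071 (5.49% of those tested), and with no scaling they were the same 1071 genes.

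Restricted genes covered a wide range of levels above the 1 FPKM that the rule asks for. Their median brain mean was 14.2 FPKM, against 6.96 FPKM over all genes tested, 643 of the 1071 reached 10 FPKM and 105 reached 100 FPKM. In 1064 of them (99.3%) the lowest of the 6 brain libraries lay above the highest of the 18 others, which was so in 3480 (17.8%) of all genes tested. Against each of the 6 groups in turn, the share of tested genes called higher in brain was 30.7% for female pituitary, 32.0% for male pituitary, 37.8% for female liver, 39.2% for male liver, 44.4% for ovary and 39.7% for testis. In all, 2577 genes (13.2%) were called higher against every 1 of the 6, among them 1040 of the restricted genes. These counts describe the way in which the genes were chosen and lend them no support. Elsewhere, 14 of the restricted genes were at 0 FPKM in all 6 other groups, 100 had every other group mean under 0.1 FPKM, and 509 had every other group mean under 1 FPKM.

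**Figure D1:**
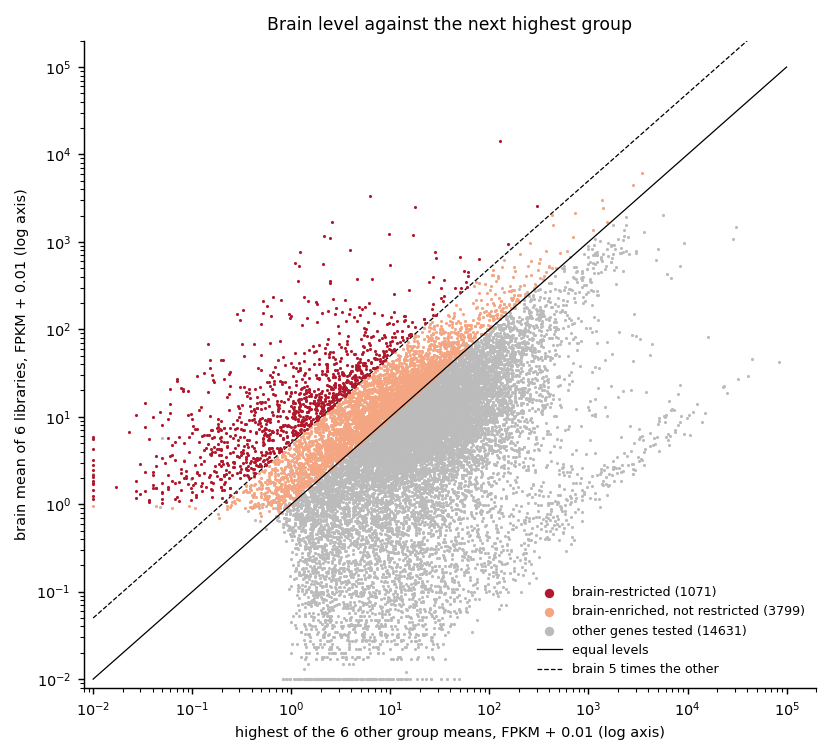
Mean level of each of 19501 genes over the 6 brain libraries (vertical, log axis) against the highest of the 6 other group means (horizontal, log axis), both as FPKM + 0.01. The 1071 restricted genes lie above the dashed line at 5 times the other group, and the other 3799 enriched genes lie between the lines, except those under 1 FPKM in brain.

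Restricted genes made up between 15.2% and 16.2% of the summed FPKM of each brain library, against 0.469% to 0.549% in pituitary, 0.0642% to 0.0758% in liver, 0.0639% to 0.0663% in ovary and 0.254% to 0.312% in testis. Between 1050 and 1060 of them reached 1 FPKM in each brain library, against 401 to 431 in pituitary, 97 to 115 in liver, 101 to 109 in ovary and 297 to 338 in testis. Many restricted genes were thus detected elsewhere at a low level. Among the 105 restricted genes at 100 FPKM or more in brain, all 105 were above 0 in each other tissue, at a median of 2.03% of the brain level in pituitary, 0.0775% in liver, 0.124% in ovary and 0.511% in testis. Growth hormone (gh1), made in the pituitary at a mean of 84266 FPKM in females and 20955 FPKM in males, was likewise present in brain at 36.7 to 54.6 FPKM and at group means of 30.0 to 36.8 FPKM in liver and gonads. The source of such low levels was not tested.

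**Figure D2:**
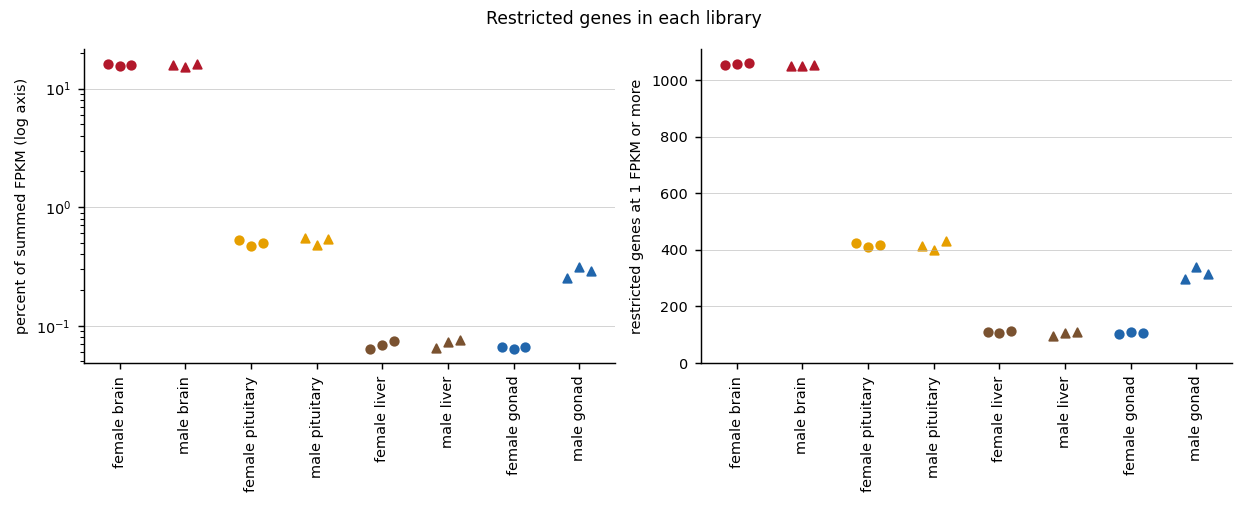
Share of summed FPKM taken by the 1071 restricted genes (left, log axis) and number of them at 1 FPKM or more (right) in each of the 24 libraries, circles for female pools and triangles for male pools. The 6 brain libraries sit at 15.2% to 16.2% and no library of another tissue reaches 1%.

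The group with the second highest level was pituitary for 626 of the 1057 restricted genes with any level elsewhere (59.2%). It was testis for 299 (28.3%), ovary for 78 (7.38%) and liver for 54 (5.11%). In 509 restricted genes every other group mean lay under 1 FPKM, so this rank can rest on few reads. Among the 3799 enriched genes that fell short of 5-fold, pituitary was next in 62.4%, gonads in 32.9% and liver in 4.74%. A further 1347 genes called higher in brain were at least 5 times every liver and gonad mean but not the pituitary means. The corresponding numbers of genes kept out by 1 tissue alone were 290 for testis, 106 for ovary and 73 for liver.

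The 12 restricted genes of known product with the highest brain level held secreted, myelin and glial proteins. Ependymin (epd), a glycoprotein that fish secrete into the cerebrospinal fluid, had 10808, 14073 and 16957 FPKM as its lowest, median and highest brain library, against group means of 89.5 and 128 FPKM in female and male pituitary, 11.7 in ovary, 40.1 in testis and under 8 in both livers. The lowest brain library exceeded the next highest group mean by far, and the ratio of the brain mean to it was 111. S100-B (s100b), a calcium-binding protein of glia, ran from 2138 to 2905 FPKM in brain with a median of 2529, and its next group was testis at 17.7 FPKM. The protein annotated as saxitoxin and tetrodotoxin-binding protein 2-like (LOC103398126) ran from 1990 to 3311 FPKM with a median of 2498, and was shared with pituitary at means of 211 FPKM in females and 305 FPKM in males.

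A CD59 glycoprotein-like gene (LOC103389817), whose relatives hold back complement on cell surfaces, ran from 1533 to 1831 FPKM in brain and stayed at or under a mean of 2.56 FPKM in all other groups, a ratio of 658. Brain fatty acid-binding protein (fabp7), a lipid carrier of radial glia, had 853 to 1069 FPKM in brain but also 156 FPKM in female and 145 FPKM in male pituitary, so that its ratio was 6.08. An intestinal-like fatty acid-binding protein gene (LOC103387509) had a ratio of 626, with 621 to 874 FPKM in brain and at most 1.22 FPKM in any other group. The neurofilament light gene neff2, which encodes an intermediate filament of axons, ran from 639 to 972 FPKM in brain, against a highest other mean of 3.88 FPKM in male pituitary. LOC103384885, annotated as a probable glutamate receptor, ran from 563 to 935 FPKM in brain with female pituitary next at 28.4 FPKM.

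**Figure D3:**
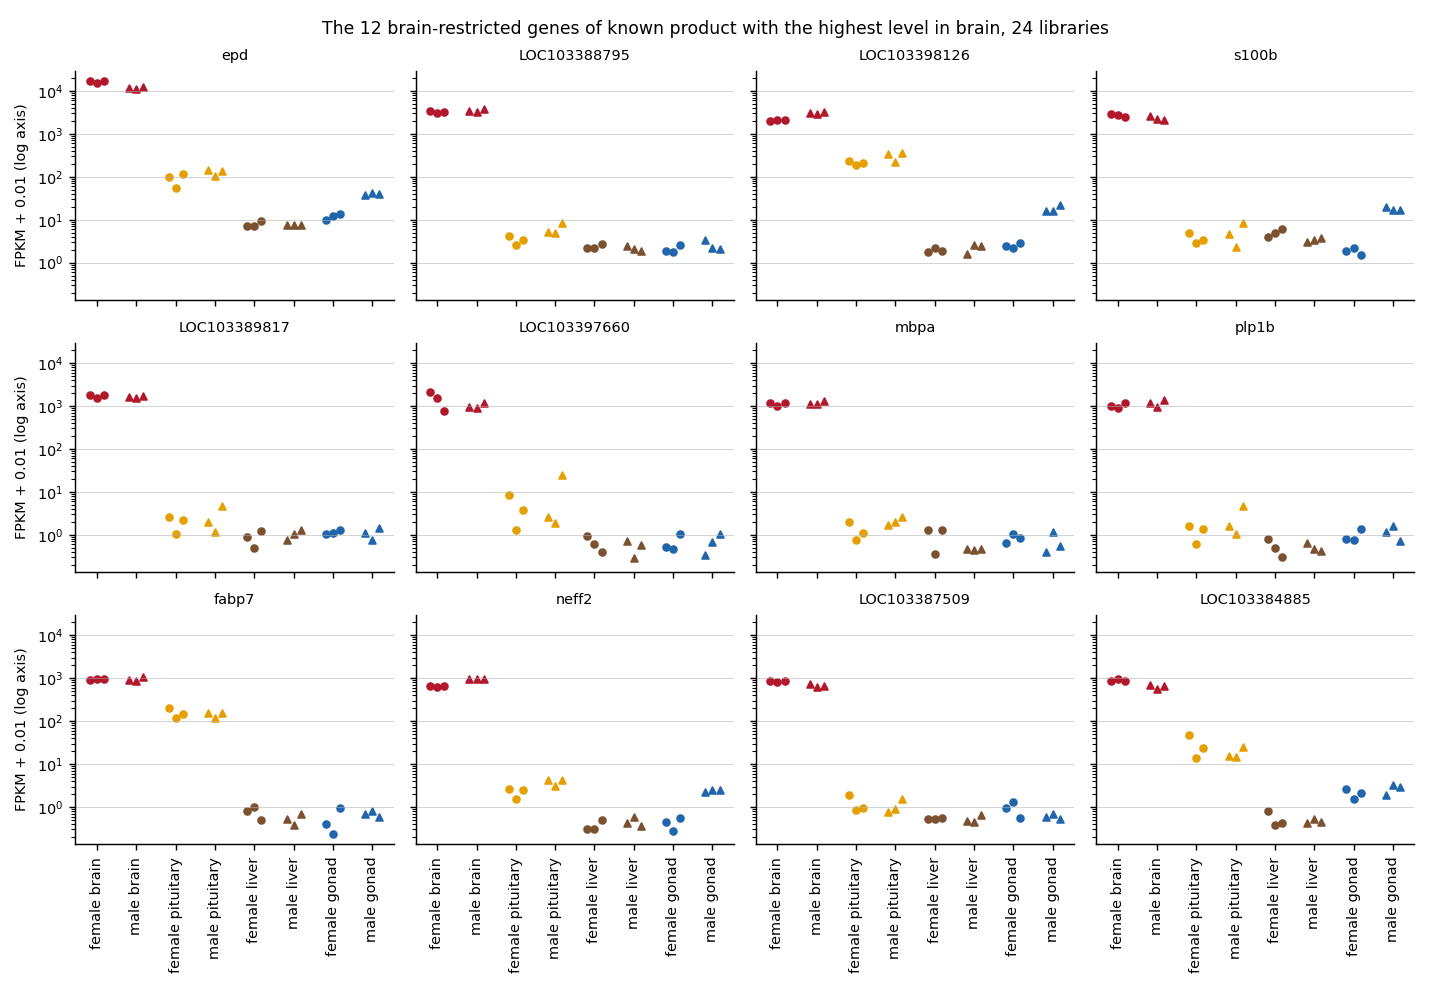
FPKM + 0.01 (log axis) in each of the 24 libraries for the 12 restricted genes of known product with the highest brain level, with brain at the left of each panel and circles for female, triangles for male pools. In all 12 panels the 6 brain points lie above the other 18, with pituitary closest for fabp7 (ratio 6.08) and LOC103398126 (ratio 8.43).

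The largest ratios belonged partly to less abundant regulators. The homeobox gene shox had 4.65 to 6.44 FPKM in brain and no reads in the 18 other libraries, which puts it at least 586-fold higher in brain by its share of the counts when the 18 libraries together are set at 3 counts. The homeobox gene barhl1, in mouse a factor of cerebellar granule and hindbrain neurons, had 8.55 to 12.5 FPKM in brain and a highest other mean of 0.0167 FPKM. A neurogenic differentiation factor 2-like gene (LOC103381479) had 58.1 to 75.5 FPKM in brain and at most 0.133 FPKM elsewhere. The short-chain dehydrogenase gene dhrs12la had 516 to 663 FPKM in brain and at most 1.09 FPKM elsewhere.

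Gene lists grouped by role were then counted against the background of all genes tested, of which 39.5% were called higher, 25.0% enriched and 5.49% restricted. In 8 neuronal lists and 3 glial and immune lists between 79.1% and 93.1% of the members tested were called higher. Since the genes of a list are not independent and the lists were made with results of these data known, the counts carry no test.

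Among the fast excitatory receptors, the channels opened by glutamate, 34 of 37 members tested were called higher in brain, 2 were called lower, 27 were enriched and 7 were restricted, with a median log2 difference of 3.56. The obligatory NMDA receptor subunit grin1 had 86.8 FPKM in its lowest, 95.2 in its median and 106 in its highest brain library, against means of 4.64 and 4.54 FPKM in female and male pituitary, 2.41 in ovary, 13.02 in testis and under 0.05 in liver. All 6 brain libraries lay above the other 18, as in 99.3% of the restricted genes. The log2 difference was 5.70 ± 0.11 (SE, edgeR adjusted p = 4.92e-24), from the test by which the gene was chosen. The liver means under 0.05 FPKM enter that difference, and the brain mean was 7.33 times that of testis, the next group. The AMPA receptor subunit gria2 had 36.8 to 47.7 FPKM in brain but also 21.5 and 20.9 FPKM in female and male pituitary, so it was enriched and not restricted. Another AMPA receptor subunit, gria3a, was not enriched, with 17.4 to 26.4 FPKM in brain and a mean of 24.7 FPKM in male pituitary. The kainate receptor 2-like gene LOC103380931 was not enriched either, at 10.7 to 14.4 FPKM in brain against means of 16.8 and 22.4 FPKM in female and male pituitary.

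Fast inhibitory receptors, the chloride channels opened by GABA or glycine, held more restricted members: 26 of 31 tested were higher, 2 were lower, 22 were enriched and 15 were restricted (median log2 difference 5.39). The GABA-A subunit gabra6, in mammals typical of cerebellar granule cells, ran from 114 to 157 FPKM in brain with a median of 128, and its highest other mean was 0.963 FPKM in female pituitary. The delta subunit gabrd had 82.2 to 89.0 FPKM in brain, with testis next at 5.77 FPKM. The beta-2 subunit gabrb2a had 64.5 to 75.3 FPKM in brain and an ovarian mean of 9.86 FPKM. The alpha-5 subunit gabra5, at 63.5 to 78.7 FPKM in brain, was shared with pituitary, whose means were 34.8 FPKM in females and 24.3 FPKM in males.

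Of the genes for transmitter synthesis and transport, 34 of 43 were higher, 4 were lower, 29 were enriched and 17 were restricted (median log2 difference 3.27). The GABA transporter slc6a11 led this list, with 352 to 415 FPKM in brain and a highest other mean of 4.64 FPKM. The enzymes that make GABA, gad1 (66.7 to 86.1 FPKM) and gad2 (62.2 to 87.1 FPKM), and the carrier that loads GABA and glycine into vesicles, slc32a1 (27.1 to 36.6 FPKM), had highest other means of 2.32, 0.753 and 0.233 FPKM. The vesicular glutamate transporter slc17a6 had 86.7 to 107 FPKM in brain and 7.34 FPKM in testis.

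Tyrosine hydroxylase (th), the first enzyme of dopamine synthesis, had 4.60 to 6.79 FPKM in brain and was restricted with a testis mean of 0.360 FPKM, and the neuronal tryptophan hydroxylase tph2, of serotonin synthesis, had 4.48 to 8.81 FPKM and a testis mean of 2.72 FPKM. Liver shared a pair of amino acid transporters with brain. The glycine transporter slc6a9 had 38.5 to 43.6 FPKM in brain against liver means of 37.8 FPKM in females and 45.8 FPKM in males, and slc6a13 had 26.9 to 31.1 FPKM in brain against 23.9 and 29.5 FPKM in female and male liver. Neither was enriched.

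The list of synaptic vesicle release, the machinery that fuses transmitter vesicles with the membrane, had 70 of 84 members higher, 9 lower, 58 enriched and 25 restricted (median log2 difference 3.93). A synuclein-like gene (sncgb) had 325 to 397 FPKM in brain and at most 1.15 FPKM elsewhere. Beta-synuclein (sncb) and the SNAP-25-A-like gene LOC103379309 were enriched and not restricted, at 438 to 553 and 241 to 338 FPKM in brain, against male pituitary means of 108 and 179 FPKM. The synaptotagmins syt1 and syt4, the leading members of the list that were not enriched, were highest in pituitary: syt1 had 73.9 to 94.3 FPKM in brain against means of 126 and 143 FPKM in female and male pituitary, and syt4 had 83.6 to 105 FPKM against 123 and 206 FPKM.

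Voltage-gated channels, which carry the action potential, had 109 of 130 members higher, 7 lower, 60 enriched and 25 restricted (median log2 difference 2.95). This was the neuronal list with the smallest share of enriched members (46.2%). The sodium channel subunit scn1bb had 136 to 162 FPKM in brain and 27.0 FPKM in female pituitary. The sodium channels scn8aa and scn8ab, which in mammals sit at the axon initial segment and nodes, had 42.4 to 55.5 and 36.2 to 45.3 FPKM in brain, with 12.3 and 14.4 FPKM in female pituitary. The subunits scn3b and scn1lab were higher in pituitary: scn3b had 25.9 to 36.3 FPKM in brain against 209 and 234 FPKM in female and male pituitary, and scn1lab had 31.1 to 36.6 FPKM against 50.3 and 62.6 FPKM.

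Synaptic adhesion and axon guidance genes had 76 of 87 members higher, 3 lower, 51 enriched and 13 restricted (median log2 difference 3.09). The presynaptic organiser nrxn1a had 84.2 to 101 FPKM in brain and pituitary means of 31.9 and 31.1 FPKM in females and males. Contactin-1 (cntn1), an adhesion protein of axons, was restricted at 70.8 to 99.7 FPKM in brain, with 13.1 FPKM in female pituitary. The adhesion genes l1cam and nrcamb were not enriched, at 56.7 to 69.5 and 29.2 to 33.5 FPKM in brain, against male pituitary means of 79.2 and 58.4 FPKM.

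Of the neuropeptide precursors, 33 of 38 tested were called higher, none was called lower, 26 were enriched and 16 were restricted (median log2 difference 5.56). Isotocin (LOC103397660), the fish counterpart of oxytocin, had the highest level, at 776, 1061 and 2082 FPKM in its lowest, median and highest brain library, with male pituitary next at 9.61 FPKM. Vasotocin (avp), the counterpart of vasopressin, ran from 151 to 586 FPKM with a median of 355, and male pituitary was next at 2.43 FPKM. Both hormones reach the pituitary in axons from the hypothalamus, and both precursors lie on chromosome Z of the assembly Cse_v1.0.

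Cholecystokinin (cck), a peptide of satiety, had 114 to 240 FPKM in brain and 5.22 FPKM in female pituitary, and the PACAP precursor adcyap1b, a releasing factor for pituitary hormones, had 133 to 199 FPKM and at most 0.313 FPKM elsewhere. Melanin-concentrating hormone (pmch) had 26.1 to 52.9 FPKM in brain but also 20.9 FPKM in ovary, and neuropeptide Y (npy), which drives feeding, had 5.98 to 15.5 FPKM with 3.11 FPKM in testis, so both were enriched and not restricted. Secretogranin-2 (scg2), a granule protein, had 68.7 to 88.5 FPKM in brain and was not enriched, its pituitary means being 342 FPKM in females and 234 FPKM in males. Proenkephalin-A (penk), the opioid precursor, had 62.3 to 85.8 FPKM in brain against 325 and 834 FPKM in female and male pituitary.

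The gonadotropin-releasing hormones were near the limit of detection in whole brain. For gnrh2 the brain libraries ran from 0.360 to 1.78 FPKM and testis had a mean of 1.16 FPKM, and gnrh3 had 0.250 to 0.860 FPKM in 5 brain libraries, 8.61 FPKM in female brain 3 and no reads elsewhere. The filter on low values left out gnrh3 and orexin (hcrt, 0.580 to 1.66 FPKM), which therefore have no test.

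Regional and neuronal transcription factors had the largest share called higher: 67 of 72 were higher, none was lower, 52 were enriched and 34 were restricted (median log2 difference 5.79). The zinc finger genes zic1 and zic2, in vertebrates expressed in dorsal brain and cerebellum, had 89.0 to 124 and 61.1 to 92.4 FPKM in brain, with female pituitary means of 1.27 and 4.997 FPKM. The RNA-binding proteins of neurons, elavl3 and elavl4, had 30.7 to 40.0 and 38.4 to 49.6 FPKM in brain. Of these, elavl3 was restricted, and elavl4, with 11.97 FPKM in female pituitary, was not. The counts of this list thus include elavl4, which is not a transcription factor. The neurogenic factors neurod2 (9.06 to 13.6 FPKM) and neurod6 (5.11 to 9.34 FPKM) were restricted, whereas neurod1 was not enriched, with 106 to 170 FPKM in brain and 166 FPKM in female pituitary. Restricted homeobox genes of the list covered fore-, mid- and hindbrain, among them otx2b, dlx5, dlx6, otp, en1, en2 and lhx1.

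Oligodendrocyte and myelin genes had 16 of 20 members higher, 2 lower, 13 enriched and 10 restricted (median log2 difference 5.42). Myelin basic protein packs the myelin membrane, and its 2 abundant copies, LOC103388795 and mbpa, ran from 3039 to 3870 and from 1020 to 1332 FPKM in brain, with male pituitary next at 6.17 and 2.12 FPKM. The proteolipid protein plp1b had 883 to 1418 FPKM and myelin protein P0 (mpz), which in fish is also found in myelin of the central nervous system, had 443 to 626 FPKM, with highest other means of 2.45 and 1.2 FPKM. The remaining restricted members were mag, a myelin adhesion protein, and the lineage regulators myrf, olig1, olig2, sox10 and nkx6-2. How reads were divided among the like-named copies of myelin basic protein is not given in the sources used here, so their separate levels are uncertain.

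A pair of genes known for myelin were not brain genes by this rule. The second proteolipid copy plp1a had 17.0 to 26.4 FPKM in brain and a mean of 34.5 FPKM in ovary. The phosphodiesterase gene cnp had 62.6 to 68.1 FPKM in brain against means of 83.1 and 123 FPKM in female and male pituitary, 95.7 in ovary and 86.3 in testis. Its call as lower (log2 difference -0.75 ± 0.09, edgeR adjusted p = 5.35e-08) turned to a log2 difference of 0.15 with no scaling.

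Of the astrocyte and radial glia genes, 27 of 33 were higher, 1 was lower, 24 were enriched and 16 were restricted (median log2 difference 3.29). Beside s100b and fabp7, the glutamate transporter slc1a2 had 530 to 596 FPKM in brain and at most 2.09 FPKM elsewhere. The intermediate filament gfap had 174 to 205 FPKM in 5 brain libraries and 100 FPKM in male brain 2, with a mean of 4.83 FPKM in ovary. Glutamine synthetase (glul), which detoxifies ammonia and recycles transmitter, had 1043 to 1295 FPKM in brain but also 472 and 706 FPKM in female and male pituitary and 363 FPKM in ovary. The water channel aqp4, a defining marker of mammalian astrocytes, was nearly absent from brain, at 0 to 0.160 FPKM, and had means of 9.63 and 15.4 FPKM in female and male pituitary.

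Markers of other cell types that brain tissue can hold were counted too. Microglial and blood immune genes had 15 of 17 members higher, 2 lower, 12 enriched and 6 restricted (median log2 difference 2.02). The restricted members were itgb2, irf8, spi1, csf1rb, tyrobp and a P2Y12-like receptor gene (LOC103378104), all known from macrophages or microglia. The integrin itgb2 had 68.7 to 118 FPKM in brain and 15.9 FPKM in female pituitary, and the myeloid regulator irf8 had 31.4 to 65.5 FPKM in brain and 6.86 FPKM in female pituitary. 

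Erythrocyte genes were higher in brain in 7 of 11 and none was restricted; their summed level was 1030 to 1650 FPKM in brain libraries, against 306 to 628 in pituitary, 322 to 897 in liver, 84.8 to 110 in ovary and 339 to 621 in testis. Part of that list, as hbae5 with 505 to 868 FPKM, was therefore about 2 times as high in brain as in the next group (ratio 1.96). How much blood each tissue held was not tested. Vessel and meningeal genes had 12 of 16 members higher, 3 lower, 10 enriched and 1 restricted, the tight-junction gene cldn5 of the blood-brain barrier.

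The remaining lists behaved otherwise, each with a smaller share called higher than the 39.5% of all genes tested. Hepatocyte genes had 0 of 35 higher and 30 lower, oocyte genes 0 of 29 higher and 26 lower, pituitary hormones and their regulators 3 of 16 higher and 11 lower, and testis germ cell genes 8 of 35 higher and 15 lower. Photoreceptor and pineal genes had 5 of 17 higher and 6 lower, 2 were enriched and none was restricted. The 2 enriched members were rbp3 and tph2, the latter being the neuronal tryptophan hydroxylase described above. The enriched gene rbp3 varied among brain libraries from 21.3 to 82.7 FPKM, with a mean of 17.5 FPKM in female pituitary. Striated muscle genes had 13 of 43 higher and 7 lower; with no scaling the median log2 difference of the muscle list was 0.71 instead of -0.11, and that of the testis list was 0.40 instead of -0.48.

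The restricted members were 3 parvalbumins in the muscle list, and spata1 and the cilia gene tekt3 in the testis list. Parvalbumins buffer calcium in muscle and in neurons, and in zebrafish parvalbumin 7 marks Purkinje cells. The parvalbumin-7-like gene pvalb6 had 131 to 146 FPKM in 5 brain libraries and 200 FPKM in male brain 3, with at most 0.270 FPKM as a mean elsewhere, and pvalb had 120 to 180 FPKM with at most 0.607 FPKM elsewhere. Of the abundant liver products, apolipoprotein A-I (apoa1) had 1080 to 1961 FPKM in brain against 30569 and 27364 FPKM in female and male liver and 49.1 to 93.2 FPKM in pituitary and testis. In ovary it had 26.3, 815 and 32.4 FPKM, and the hepatocyte genes summed to 4110 FPKM in the second ovary library, against 139 and 179 FPKM in the other ovary libraries. Transferrin (tfa), the iron carrier of plasma, had 762 to 1399 FPKM in brain against 29055 and 18791 FPKM in female and male liver, and 20.5, 940 and 26.4 FPKM in ovary. Without female gonad 2 both were called higher in brain than the mean of the other groups, with log2 differences of 0.79 for apoa1 (edgeR adjusted p = 0.00201) and 0.66 for tfa (edgeR adjusted p = 0.00496), against 0.25 and 0.04 with all libraries (adjusted p = 0.668 and 0.988). Both were higher in female than in male brain, with log2 differences of 0.48 for apoa1 (edgeR adjusted p = 0.00189) and 0.78 for tfa (edgeR adjusted p = 4.15e-07). Of 29 hepatocyte genes tested between the sexes in brain, 3 were higher in females and 1 was higher in males, with a median log2 difference of -0.08. Over all genes tested between the sexes, 9.36% were higher in females and 10.9% higher in males.

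**Figure D4:**
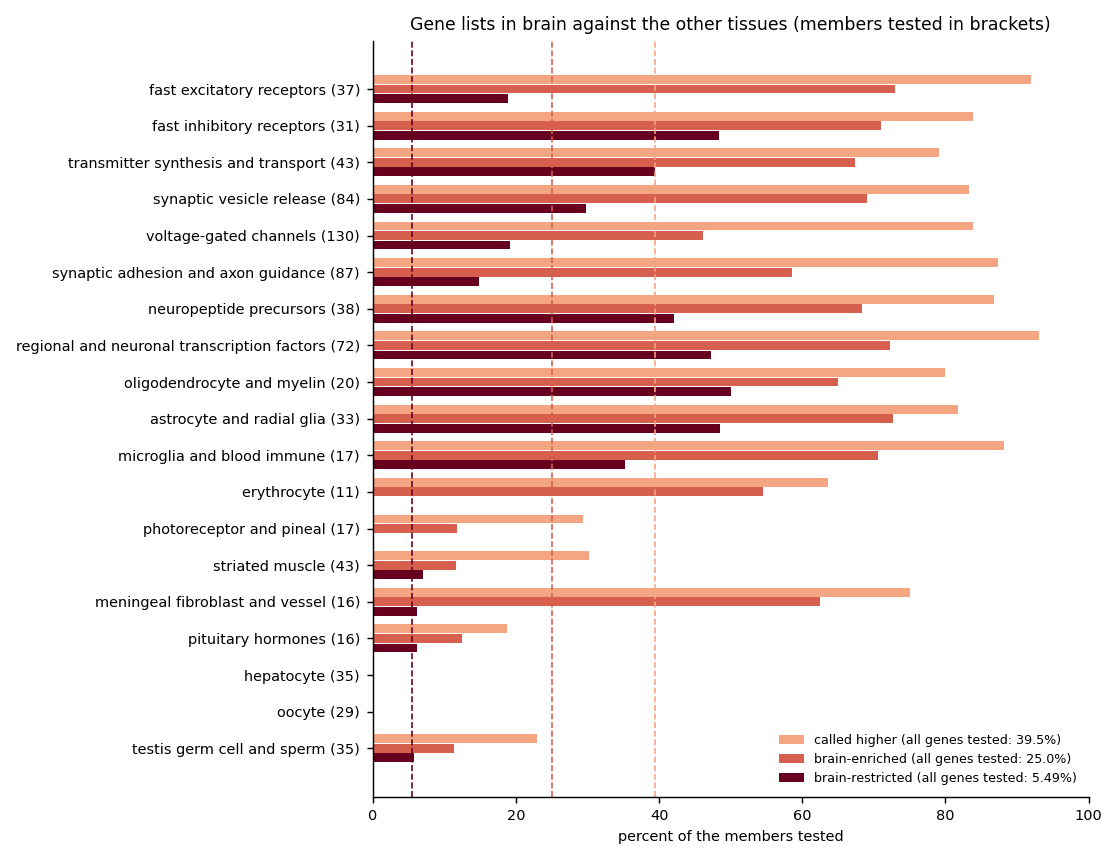
Percent of the tested members of 19 gene lists that were called higher in brain, brain-enriched and brain-restricted, with dashed lines at the shares over all genes tested (39.5%, 25.0% and 5.49%). The first 11 lists, neuronal, glial and immune, exceed all of these lines, and the hepatocyte and oocyte lists have no bar.

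Values near the rules' edges show how sharply they divide. Among genes at 10 FPKM or more in brain, LOC103388706 and the unannotated locus TCONS_00043119 lay just inside the enriched rule, both at a ratio of 1.001 to female pituitary, and sgsm1 (ratio 0.9999, male pituitary) and LOC103392954 (ratio 0.9995, male liver) lay just outside. Around the restricted rule, chl1 (ratio 5) and LOC103376929 (ratio 5.01) were in, and pid1 (ratio 4.98) and abca2 (ratio 4.98) were out. Of these, LOC103388706 varied most among brain libraries, between 0.240 and 31.6 FPKM.

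The choice of restricted genes was repeated in 1 sex and tested in the other, with no library in common. In the 12 female libraries 1499 genes met the restricted rule, of 18187 tested (8.24%). In a separate edgeR fit of the 12 male libraries 1451 of them were tested, 1428 (95.3% of the 1499) were called higher in male brain than in male pituitary, liver and testis, and 1 was called lower, while 35.8% of all 18537 genes tested in males were called higher. In the other direction 1279 genes (6.90%) met the rule in males and 1255 were tested in females, where 1252 (97.9% of the 1279) were called higher and 0 were called lower, against 40.2% of all genes tested in females.

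The 5-fold rule itself carried over less often, in 66.8% of the female-chosen genes and 78.3% of the male-chosen genes. Of the 497 female-chosen genes that did not meet it in males, testis was the next highest male group in 350 (70.4%), and 261 missed it through testis alone.

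Sex differences within brain were not used to choose the genes. In an edgeR fit of the 6 brain libraries, 3318 of 16385 genes tested (20.3%) differed between the sexes at an adjusted p under 0.05, 1533 of them higher in females (9.36%) and 1785 higher in males (10.9%). This split turned with the scaling: with no scaling 11.5% were higher in females and 8.69% higher in males. Of the 1071 restricted genes, 290 (27.1%) differed, 88 higher in females (8.22%) and 202 higher in males (18.9%). Of the other 15314 genes 9.44% were higher in females and 10.3% higher in males. The median log2 difference, female minus male, was -0.14 for restricted genes and 0.01 for all genes. Most of the 290 called differences were under 2-fold. Called differences of at least 2-fold numbered 33 among restricted genes (3.08% of the 1071), against 3.31% of all genes tested. The counts rest on few libraries, since 172 restricted genes were called without female brain 1 (2090 over all genes) and 169 without female brain 2 (1940 over all genes); 75.0% and 68.6% of these were higher in males, against 69.7% with all 6 libraries and 62.0% with no scaling, where 43.0% of all calls were higher in males in place of 53.8%.

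Males carry 2 copies of chromosome Z and females 1. Of 47 restricted genes placed on Z in Cse_v1.0, 0 were called higher in females and 32 higher in males (68.1%), beside 59.9% of all 696 Z genes tested. Of 6 restricted genes placed on W, 4 were called higher in females and 1 higher in males. Among all 170 W genes tested, 161 were called higher in females and 3 higher in males. The 1018 restricted genes not placed on Z or W were 901 on autosomes and 117 with no chromosome found, whose location is unknown. Of these 1018, 84 were called higher in females (8.25%) and 169 higher in males (16.6%). All 15519 genes tested that were not placed on Z or W had 8.76% and 8.80%. By position in the same assembly, 5.85% of Z genes, 3.21% of W genes and 5.43% of autosomal genes tested were restricted.

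**Figure D5:**
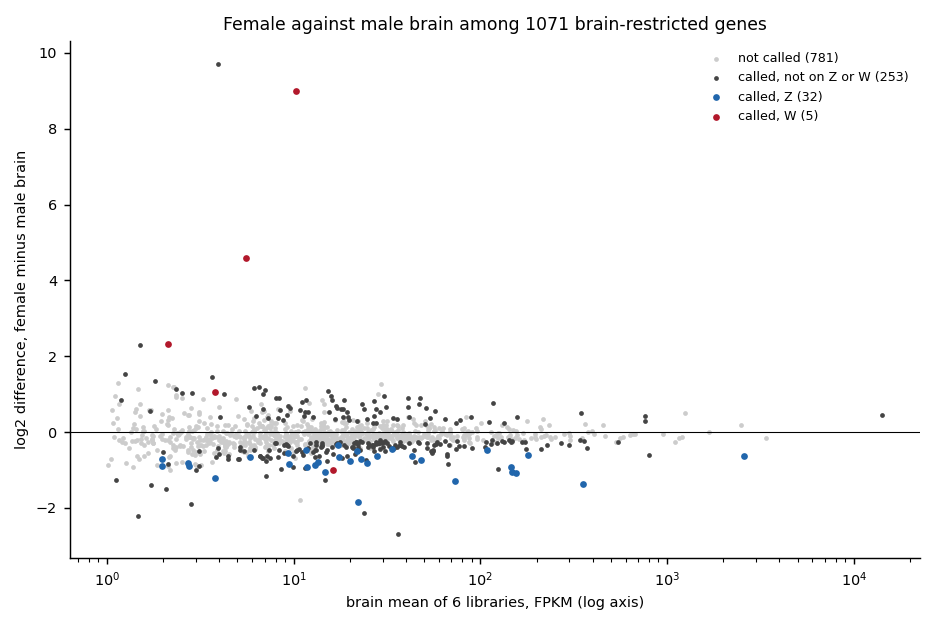
log2 difference between female and male brain (vertical, positive where females are higher) against mean brain FPKM (horizontal, log axis) for the 1071 restricted genes. The 32 called Z genes all lie below 0, 4 of the 5 called W genes lie above it, and of the called genes most lie below.

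The largest differences towards females among restricted genes included 3 genes placed on W, where most genes tested were called higher in females. A Rab-3C-like gene on W (LOC103397205) had 21.8, 20.3 and 19.6 FPKM in the female brain pools and 0, 0 and 0.0800 FPKM in the male pools, and a septin-5-like gene on W (LOC103397004) had 10.2 to 11.1 FPKM in females and 0.360 to 0.520 FPKM in males. A homer1-like gene on W (LOC103397200) had 3.25 to 3.75 FPKM in females and 0.550 to 0.790 FPKM in males, and TCONS_00060202, a locus with no chromosome given that is annotated as neurofilament heavy polypeptide, had 6.59 to 9.15 FPKM in females and at most 0.0200 FPKM in males. In these 4 genes, named for the size of their difference, every female pool lay above every male pool. Since W genes can have near-identical Z copies, how their reads were divided is uncertain. Leaving out male brain 1 ended the call of TCONS_00060202 as higher in brain than in the other tissues, and leaving out male brain 3 ended that of LOC103397205. The log2 differences were still 2.79 and 3.93. For LOC103397205 the male pools left were at 0 FPKM, and a group at 0 makes the test on the log scale unstable.

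Higher in males, the galanin precursor (gal), a peptide of feeding and reproduction, had 9.94, 8.20 and 11.8 FPKM in the female pools and 81.2, 51.1 and 55.5 FPKM in the male pools (log2 difference -2.69, edgeR adjusted p = 3.68e-05). The urotensin-related peptide urp2 had 0.450 to 1.96 FPKM in females and 3.47 to 5.23 FPKM in males (log2 difference -1.89, edgeR adjusted p = 0.00545), and cldn5, on Z, had 41.6 to 45.5 FPKM in females and 91.5 to 114 FPKM in males (log2 difference -1.28, edgeR adjusted p = 3.28e-08). The calls of gal, urp2 and cldn5 held when any 1 brain library was left out. In these genes the sexes did not overlap, and they did not overlap either in avp, agtr1 and spx below. The genes gal, urp2, agtr1 and spx were named for the size of their difference. The share of all genes without overlap between the sexes was not counted. Vasotocin (avp) had 274, 187 and 151 FPKM in females and 502, 586 and 435 FPKM in males (log2 difference -1.36, edgeR adjusted p = 0.0312), which was no longer called without female brain 2 (adjusted p = 0.115) or without any 1 of the male pools (0.0631 to 0.103). The angiotensin receptor gene agtr1 had 5.60 to 13.7 FPKM in females and 31.3 to 42.7 FPKM in males (log2 difference -2.13, edgeR adjusted p = 0.0111). It was not called without female brain 2 (adjusted p = 0.0596) or with the replicate number, shared by female and male pools, as a block (0.0639). The spexin gene spx had 0.230 to 0.850 FPKM in females and 1.03 to 3.51 FPKM in males (log2 difference -2.20, edgeR adjusted p = 0.0334), not called without female brain 1 (0.117) or female brain 2 (0.099), or by DESeq2 (0.0617).

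Neuronal genes that differed between the sexes were more often higher in male brain, and immune genes in female brain. Over the 8 neuronal lists together 479 genes were tested between the sexes, of which 18 were higher in female brain (3.76%) and 112 higher in male brain (23.4%), beside 9.36% and 10.9% of all genes tested. With no scaling the counts were 18 and 86 (3.76% and 18%, beside 11.5% and 8.69% of all genes). Without female brain 1 they were 10 and 67 of 472 (2.12% and 14.2%, beside 5.47% and 7.54% of all genes). Without female brain 2 they were 11 and 70 of 469 (2.35% and 14.9%, beside 5.0% and 7.09%). Without any other brain library they were 14 to 15 and 78 to 100 of 470 to 474. Those were 2.95% to 3.19% and 16.5% to 21.3%, beside 5.76% to 9.03% and 8.06% to 10.2% of all genes. The regional and neuronal transcription factors, 1 of these 8 lists, had 7 higher in females and 7 higher in males of 67 tested, with neurod1 higher in females (log2 difference 0.41, edgeR adjusted p = 0.00208), a call that held when any 1 brain library was left out. The calls of zic1, zic2 and neurod2 as higher in females (log2 differences of 0.26, 0.33 and 0.42) were each lost without female brain 1 (edgeR adjusted p = 0.121, 0.089 and 0.0748), without male brain 1 (0.129, 0.0835 and 0.0722) and without male brain 2 (0.141, 0.0623 and 0.0551). Those of zic1 and neurod2 were also lost without female brain 2 (0.112 and 0.0783), and that of zic1 without female brain 3 (0.104). The GABA enzymes gad1 and gad2 and the vesicle carrier slc32a1 were among the genes higher in males, with log2 differences of -0.36, -0.44 and -0.37. Of 17 microglial and blood immune genes 9 were higher in female brain and none in male brain. With 1 library left out 5 to 11 were higher in female brain, 5 of 15 tested without female brain 1 and 6 of 15 without female brain 3. The myeloid regulator irf8 had 65.5, 57.9 and 55.3 FPKM in females and 31.4, 32.1 and 39.5 FPKM in males (log2 difference 0.75, edgeR adjusted p = 0.000195). In pooled tissue, fewer cells of a type and less RNA per cell cannot be told apart.

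Brain pools of 1 sex were alike for most restricted genes. The median coefficient of variation over 3 pools was 9.14% in females and 10.7% in males, and the highest pool exceeded 2 times the lowest in 52 restricted genes in females and 65 in males. Single pools stood apart for some genes, as male brain 2 did for gfap (100 FPKM) and male brain 3 for pvalb6 (200 FPKM). The gene tbr1, a cortical neuron factor in mouse named here after its values were seen, had 3.81, 3.99 and 4.70 FPKM in the female pools and 5.65, 0.510 and 2.78 FPKM in the male pools. Male brain 2 was the lowest of the 6 for this gene. The thymic parvalbumin-like gene pvalb8 had 26.3 FPKM in male brain 2 and 4.39 to 13.6 FPKM in the other 5 pools. Whether the pools held the same parts of the brain was not tested.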

How the data were processed

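RNA from pools of 5 fish was sequenced on an Illumina HiSeq instrument, per the labels' protocols. The authors deposited 1 table with an FPKM value and an estimated count per gene and library (22773 entries, of which 2400 are unannotated loci). TopHat2 (2.0.3.12) and Bowtie2 are named in the submitters' processing notes; the quantifier, strand setting, filters, build and annotation are not given in the sources used here. Of 20373 NCBI identifiers, 19502 were found in the gene table of Cse_v1.0, which gave symbols and chromosomes.

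The deposited estimated counts (97.1% to 98.4% whole) were rounded and tested with edgeR 4.0.16 (TMM scaling, robust quasi-likelihood fit, 8 tissue-by-sex groups, Benjamini-Hochberg over all genes tested) in R 4.3.3, after leaving out genes that reached 1 FPKM in fewer than 3 of the libraries in the fit. A group with no counts pulls the mean of the other groups down, so the enriched rule also asks for the highest mean FPKM. SE is the log2 difference over the square root of F. The code was tested on simulated data with 200 changed genes. Lists were matched by symbol and product name; receptors caught by the neuropeptide pattern and plp2 were dropped by name. Members and lists were chosen with earlier results of these data known. Named genes are the 12 highest and 12 most specific restricted genes, the leading enriched and not enriched members of each list, preset key genes, genes at the rules' edges and the largest sex differences. Alternatives used limma 3.58.1 and DESeq2 1.42.0. p-values measure the spread between pools. A few genes that these rules pick are not reported here.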

Additional observations from a re-analysis of the deposited data

Results flagged for a closer look

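Of the 136 named genes with a brain mean of 1 FPKM or more, 5 had 1 brain library set apart from the other 5 by more than Dixon's 95% limit, and chance flags about 1 in 20. The parvalbumin-7-like gene pvalb6 had 200 FPKM in male brain 3, against 131 to 146 FPKM in the other 5 brain libraries. A brain-like fatty acid-binding protein gene (LOC103378371), not brain-enriched, had 110.4 FPKM in male brain 3, against 98.6 to 101 FPKM. The glial filament gene gfap had 100.2 FPKM in male brain 2, against 174 to 205 FPKM. The releasing hormone gene gnrh3 had 8.61 FPKM in female brain 3, against 0.250 to 0.860 FPKM. The zona pellucida gene LOC103392929, an egg coat gene, had 34.83 FPKM in male brain 1, against 1.92 to 3.71 FPKM, and the summed level of the 30 oocyte genes was 177 FPKM in the same library, against 26.9 to 31.6 FPKM. The sources of these values were not tested.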

How the results depend on the processing

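The 4870 enriched and 1071 restricted genes stayed within 1.5 times their number under all scalings, filters and tests run, and when any 1 library was left out (4787 to 4901 and 1052 to 1081). By construction, a ratio of 10 left 595 restricted genes, and asking that the lowest brain library reach 5 times the highest other library left 679. Genes called higher and lower numbered 12275 and 2974 with no scaling, and 12075 and 4205 with limma on log2(FPKM + 0.1); with 1 library left out they ran from 7513 to 7767 and from 7383 to 7605. The cause was not tested. Genes higher against all 6 groups numbered 1411 when a 2-fold difference was asked for. Sex differences in brain numbered 1940 to 3136, and 169 to 269 among restricted genes, with 1 brain library left out.

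With no scaling, limma on log2(FPKM + 1) and limma on log2(FPKM + 0.1), 5 named genes that were not enriched, of which cnp and mos had been called lower, had positive in place of negative log2 differences: cnp (0.15 in all 3), acta2 (0.70, 0.64 and 0.74), mos (0.44, 0.02 and 0.40), spata2 (0.83, 0.70 and 0.83) and leprel4 (0.64, 0.53 and 0.65). Of 4430 values of named genes under alternatives, 4373 kept direction and call, 26 lost and 16 gained a call and 15 reversed. The alternatives for the lists, and for named and restricted genes between the sexes, were chosen after seeing the data.

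The tissues share replicate numbers, which the main test did not use. Deviations from the group means of same-numbered brain and other pools of 1 sex correlated weakly, at -0.019 to 0.199, over 0.1 in 6 of 18 pairs. The 36 pairs of unlike number had -0.186 to 0.151. Whether same-numbered pools came from the same fish was not tested. All 3 same-numbered pairs lay above the 6 others in female pituitary (0.117 to 0.194), female liver (0.0784 to 0.125), male liver (0.0483 to 0.0497) and male gonad (0.0551 to 0.0848), but not in female gonad or male pituitary. With the number within sex as a replicate block 7710 genes were higher, 7577 lower, 4874 enriched and 1071 restricted. Against all 6 groups, 2435 genes were then higher. For the sex difference in brain the block instead paired same-numbered female and male pools, which hold different fish. With that block 3062 genes differed between the sexes in brain (282 restricted). Deviations of the pools so paired correlated at -0.0342, -0.00618 and 0.0292. Depth limits genes near 1 FPKM, such as the releasing hormones. Pools hide spread between fish.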
